A study of Homo sapiens with 5 samples.

Results

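The 58 genes described here were the human Wnt ligands, their frizzled and LRP receptors, the R-spondin axis, the secreted antagonists and the feedback and nuclear genes of the pathway. They were taken by gene name, and all 58 were found among the 64837 gene entries of the RNA-Seq count files. The names of 49 came from the submitters' gene table and those of the other 9 from GENCODE release 29. The cells were NCI-H209, an established human SCLC (small cell lung cancer) line. The control group was 3 samples of untreated NCI-H209 cells grown in RPMI-1640 with FBS. The co-cultured group was 2 samples of the same line kept for 24 h with HBMECs, human brain microvascular endothelial cells, which sat in a Transwell insert and shared only the medium with the tumor cells. Each group therefore stands for 1 cell line, and the labels do not state whether the replicates were separate cultures, so p-values measure only the spread between these samples.

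Wnt proteins are secreted lipid-modified ligands. In the canonical branch a ligand joins a frizzled receptor to an LRP co-receptor, which stops the AXIN and APC complex from marking β-catenin for degradation, and β-catenin then acts with TCF/LEF factors on target genes such as AXIN2 and LGR5. In the non-canonical branches, ligands such as WNT5A and WNT11 act through frizzleds on planar cell polarity, the cytoskeleton or calcium release without β-catenin. R-spondins bind LGR receptors and so keep the ubiquitin ligases ZNRF3 and RNF43 from removing frizzleds. DKK proteins block LRP co-receptors, while SFRPs, FRZB and WIF1 bind the ligands themselves.

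The control libraries held 17317045 to 19157348 counts and the co-cultured ones 18918787 and 15457071, so that 3 counts corresponded to 0.154 to 0.198 CPM (counts scaled to library size with TMM factors). The first principal component separated the groups with 64.7% of the variance, and the second, with 18.3%, set control replicate 1 apart. Unmapped reads made up 8.13% to 8.48% of reads in control and 16.8% and 15.9% in the co-cultured group, and their part in the results was not tested. Of 25 endothelial marker genes, 9 had at most 3 counts in every library (TIE1, ROBO4, EMCN, MMRN1, MMRN2, PLVAP, ECSCR, SOX17 and LYVE1), and the summed level of the list was 39.7, 26.8 and 20.6 CPM in control against 38.4 and 44.4 CPM in co-culture. Of its 12 tested genes, 3 were higher (ANGPT2, ESAM and ICAM2) and 0 lower by the edgeR quasi-likelihood test, with 2 lower at an unadjusted p under 0.05. ESAM passed the filter on low counts only through the co-cultured group, and FLT1, TEK and NOS3 only through the control group. DESeq2 called 2 of the list higher and 2 lower. By the edgeR test, 18.4% of all genes tested were higher and 15.0% lower. In reads per library, PECAM1 had 14, 10 and 3 in control against 18 and 11 in co-culture, CDH5 11, 8 and 4 against 7 and 11, VWF 159, 75 and 87 against 87 and 90, and ANGPT2 140, 40 and 32 against 254 and 287. KDR, FLT1, TEK and NOS3 were higher in control replicates 1 and 2 than in the other 3 libraries, as in FLT1 with 30, 28 and 0 against 1 and 1. Of 18 neuroendocrine markers of SCLC, 17 were tested, 6 rose (35.3%) and 3 fell (17.6%), beside the same shares of all genes. CHGA had at most 1 count, and the list summed to 3368 to 4059 CPM in control and to 4432 and 4427 CPM in co-culture. The endothelial and neuroendocrine sums were not carried into any fit, and their part in the Wnt results was not tested.

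Of the 58 Wnt genes, 33 had counts enough for the test. Among the 33, 11 rose in co-culture and 2 fell at an adjusted p under 0.05 (the edgeR quasi-likelihood test, with p adjusted by Benjamini-Hochberg over all 20360 genes tested), and 20 did not pass. Across all 20360 genes, 18.4% were higher and 15.0% lower by the same rule (33.4% in either direction). The rise took in the ligands WNT5A, WNT5B, WNT9A, WNT10A and WNT10B, the receptors FZD1, FZD5, FZD8 and LRP5, and the nuclear genes CTNNB1 and TCF7L2. The genes that fell were LGR4 and NKD1. Upregulated DEGs, defined by a log2 fold change above 1 and an unadjusted p under 0.05, numbered 6 among the 33 against 5.44% of all genes (WNT5A, WNT5B, WNT9A, WNT10A, FZD5 and FZD8). Downregulated DEGs numbered 0 against 5.01% of all genes, with 2 members lower at an unadjusted p under 0.05, and DESeq2 also gave 0 downregulated DEGs, with 11 members higher and 2 lower. FZD8 passed the filter only through the co-cultured group, where it is high, and without it 10 of 32 rose, 5 were upregulated DEGs and the median log2 fold change was 0.08. The median log2 fold change of the 33 was 0.11 (range -0.99 to 3.73) against -0.03 over all genes tested. With upper-quartile scaling, 15.1% of all genes were higher and 19.3% lower, and 10 Wnt genes were called higher. In bulk RNA, fewer cells that carry a transcript and less of it per cell cannot be told apart.

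**Figure D1:**
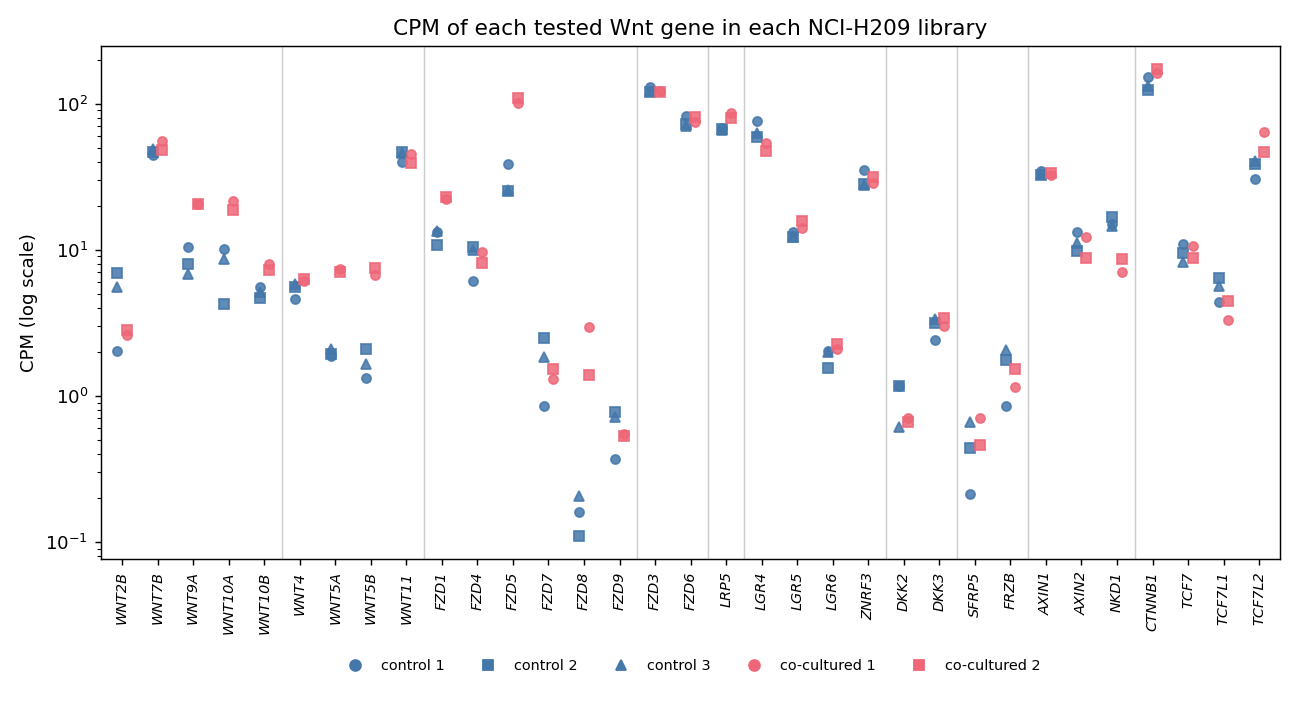
CPM (log scale) of each of the 33 tested Wnt genes in each of the 5 NCI-H209 libraries, with 1 marker per library, control and co-cultured in separate colors. FZD8 moves from between 0.111 and 0.205 CPM in control to 2.95 and 1.39 CPM in co-culture, while FZD3 stays between 120 and 131 CPM in every library.

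The remaining 25 Wnt genes were too low to test. For 15 of them no library held more than 3 counts (WNT1, WNT2, WNT3, WNT7A, WNT9B, WNT16, FZD10, LRP6, RSPO1, RSPO3, DKK4, SFRP2, WIF1, NKD2 and LEF1). The other 10 (WNT3A, WNT6, WNT8B, FZD2, RSPO2, RSPO4, RNF43, DKK1, SFRP1 and SFRP4) reached between 4 and 15 counts in their highest library. At this depth no difference in these genes could be read from the main fit, and a low count here does not show that a transcript was absent.

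Among the ligands, the largest relative rises were in the non-canonical WNT5A and WNT5B, from low levels. WNT5A (chr3:55465715-55490539 in GRCh38), the best studied non-canonical Wnt, counted 35, 35 and 41 reads in control against 136 and 107 in co-culture. In CPM this was 1.86, 1.94 and 2.10 against 7.43 and 7.07, so every co-cultured library lay above every control library. The means were 1.97 ± 0.122 CPM (SD, n = 3) and 7.25 ± 0.258 CPM (SD, n = 2), which is a log2 fold change of 1.88 (SE 0.19, edgeR quasi-likelihood adjusted p = 0.000181). WNT5B, its close paralog (chr12:1529891-1647243), counted 25, 38 and 32 reads in control against 122 and 113 in co-culture. Its means were 1.69 ± 0.388 CPM (SD, n = 3) and 7.07 ± 0.563 CPM (SD, n = 2), with no overlap between the groups and a log2 fold change of 2.06 (SE 0.23, edgeR quasi-likelihood adjusted p = 0.000278). Leaving out each library in turn kept both genes called, at 1.85 to 1.93 for WNT5A and 1.92 to 2.25 for WNT5B.

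The other non-canonical ligands did not pass the test. WNT11, which acts in convergent extension movements, stood at 39.9, 46.7 and 45.8 CPM in control and 44.9 and 39.1 CPM in co-culture, with overlapping groups. Its log2 fold change was -0.07, with a 95% interval of -0.30 to 0.17. WNT4, a ligand of kidney and reproductive tract development, stood at 4.57, 5.53 and 5.84 CPM in control and 6.12 and 6.34 CPM in co-culture. The WNT4 groups did not overlap, and the log2 fold change was 0.23 (edgeR quasi-likelihood adjusted p = 0.360). Per kilobase of exon, WNT11 was the most abundant ligand in both groups, at 18.4 CPM per kb in control and 17.5 in co-culture, whereas WNT5A reached 0.266 and 0.980 and WNT5B 0.392 and 1.64 CPM per kb. Even after their rise, WNT5A and WNT5B therefore lay far below WNT11 in level.

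Of the 14 canonical ligands, 5 were tested and 3 rose, while 18.4% of all genes tested were higher. WNT9A (chr1:227918656-227947898), a ligand of joint and skeletal development, stood at 10.4, 8.02 and 6.81 CPM in control and at 20.5 and 20.4 CPM in co-culture. The groups did not overlap, and the log2 fold change was 1.28 (SE 0.17, edgeR quasi-likelihood adjusted p = 0.000621). WNT10A (chr2:218880363-218899581), a ligand of skin appendage and tooth development, stood at 10.2, 4.26 and 8.70 CPM in control and at 21.5 and 18.8 CPM in co-culture. Control replicate 2 was the lowest, both co-cultured libraries were above all controls, and the log2 fold change was 1.38 (SE 0.27, edgeR quasi-likelihood adjusted p = 0.00477). Without co-cultured replicate 1 the WNT10A value was 1.30 and no longer passed (edgeR quasi-likelihood adjusted p = 0.0587). WNT10B, known for holding back fat cell differentiation, rose less, from 5.53, 4.70 and 5.17 CPM to 7.98 and 7.27 CPM (log2 fold change 0.57, edgeR quasi-likelihood adjusted p = 0.0277). The WNT10B call was lost without any 1 of control replicate 2, control replicate 3, co-cultured replicate 1 and co-cultured replicate 2, with adjusted p between 0.0688 and 0.180.

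WNT7B, which signals through β-catenin in lung and in brain vessels, was the most abundant canonical ligand per kilobase, at 9.25 CPM per kb in control and 10.3 in co-culture. Its libraries were at 44.3, 46.7 and 49.1 CPM in control and 55.5 and 48.5 CPM in co-culture, with overlap. The log2 fold change of WNT7B was 0.16, with a 95% interval of -0.05 to 0.36, and did not pass. WNT2B counted 38, 126 and 108 reads in control against 48 and 43 in co-culture, so that control replicate 1 stood with the co-cultured libraries. Its log2 fold change of -0.82 missed the threshold in the main fit (edgeR quasi-likelihood adjusted p = 0.179). It became -1.19 without control replicate 1 (edgeR quasi-likelihood adjusted p = 0.000241). WNT2B also passed with a filter of 1 count in any library, and with unstranded counts it was at -0.40 and did not pass. Most reads at WNT2B, 84.7%, lay on the other strand, where ST7L is annotated, and whether they reached the sense count was not tested. WNT3A, the ligand most used to activate β-catenin in culture, counted 0, 4 and 10 reads in control against 15 and 8 in co-culture and was not tested.

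**Figure D2:**
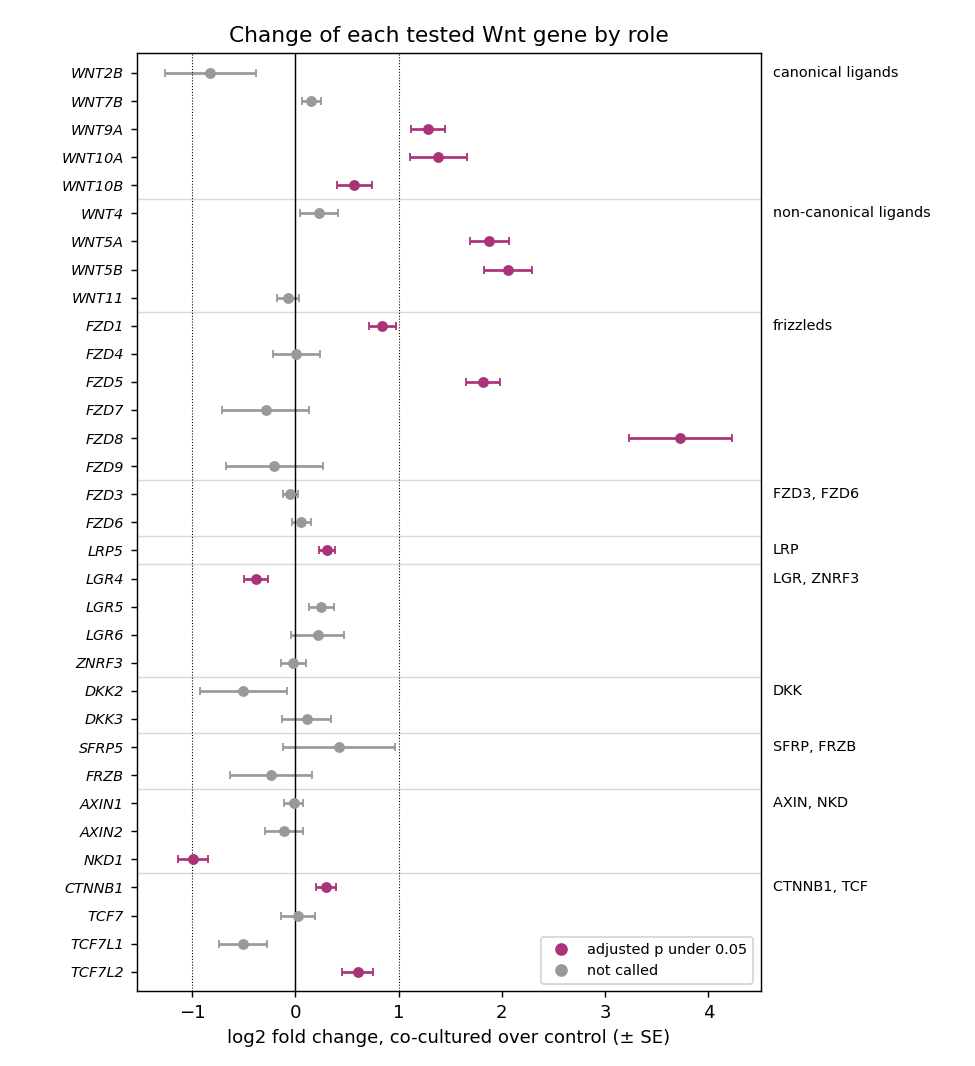
Log2 fold change in co-cultured cells relative to control for the 33 tested Wnt genes, ordered by role, with bars of 1 SE; colored points had an adjusted p under 0.05 and dotted lines stand at log2 fold changes of -1 and 1. FZD8 at 3.73, WNT5B at 2.06, WNT5A at 1.88 and FZD5 at 1.82 lie farthest to the right, and NKD1 at -0.99 farthest to the left.

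The make-up of the ligand family is given as each gene's share of the summed CPM per kb of all 18 ligands, a share within a library that no library scaling alters. Ligands of the canonical group held 48.1%, 41.5% and 44.6% in control and 53.8% and 53.9% in co-culture. WNT11 alone held 47.4%, 53.1% and 50.3% in control and 38.2% and 36.8% in co-culture. WNT7B went from 25.1%, 25.3% and 25.6% to 22.5% and 21.7%. For canonical ligands together, WNT11 and WNT7B, the shares of the groups did not overlap, while neither WNT11 nor WNT7B passed the test on its own level. The summed ligand level was 35.0, 36.6 and 38.0 CPM per kb in control and 48.9 and 44.2 in co-culture. With 3 samples against 2, an exact two-sided permutation test of such a share cannot give a p below 0.1, so the shares stand as descriptions.

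Among the frizzleds, the 7-pass receptors of Wnt ligands, FZD5, FZD8 and FZD1 rose and the other 5 tested receptors did not pass. Without FZD8 this makes 2 of 7, while 18.4% of all genes tested were higher. FZD5 (chr2:207762586-207769563), a receptor of canonical ligands and of WNT5A, counted 723, 458 and 501 reads in control against 1849 and 1651 in co-culture. In CPM these were 38.4, 25.3 and 25.7 against 101 and 109, well apart. The means were 29.8 ± 7.48 CPM (SD, n = 3) and 105 ± 5.66 CPM (SD, n = 2), a 3.52-fold difference and a log2 fold change of 1.82 (SE 0.16, edgeR quasi-likelihood adjusted p = 9.91e-05). FZD5 kept its call without each library in turn, at 1.72 to 2.04. FZD8 (chr10:35638249-35642278), the closest relative of FZD5 in sequence, counted 3, 2 and 4 reads in control against 54 and 21 in co-culture. Over the summed counts, 9 in control and 75 in co-culture, the ratio of rates was 14.1, with a 95% interval of 7.03 to 31.9 that covers counting error only. The fitted log2 fold change of FZD8 was 3.73 (SE 0.50) and ran from 3.08 to 4.16 without each library in turn, but since the filter let FZD8 in only through the co-cultured group, this fit is given as a description. At this count the control level of FZD8 was near the floor of 3 counts, and its co-cultured libraries differed from each other, at 2.95 and 1.39 CPM. FZD1 (chr7:91264364-91271326) rose from 13.1, 10.8 and 13.5 CPM to 22.1 and 22.8 CPM (log2 fold change 0.84, SE 0.13, edgeR quasi-likelihood adjusted p = 0.00127).

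FZD3 and FZD6, the frizzleds best known for planar cell polarity in axon tracts and hair patterning, were the most abundant by CPM in control. FZD3 stood at 131, 120 and 122 CPM in control and 121 and 120 CPM in co-culture, and FZD6 at 82.3, 72.5 and 69.9 against 75.4 and 80.7 CPM. The groups overlapped for both, and the 95% intervals of the log2 fold change were -0.22 to 0.12 for FZD3 and -0.15 to 0.26 for FZD6. FZD4, the Norrin receptor of retinal vessels, showed a log2 fold change of 0.01 (SE 0.23), FZD7 of -0.29 (SE 0.42) and FZD9 of -0.20 (SE 0.47), each with overlapping groups. Per kilobase of exon, FZD5 moved from 4.44 to 15.7 CPM per kb, next to 18.4 and 19.2 for FZD6 and 9.03 and 8.74 for FZD3. FZD5 thus lay below FZD3 in control and above it in co-culture on that scale. FZD8 reached 0.538 CPM per kb and FZD1 3.23 CPM per kb in co-culture.

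**Figure D3:**
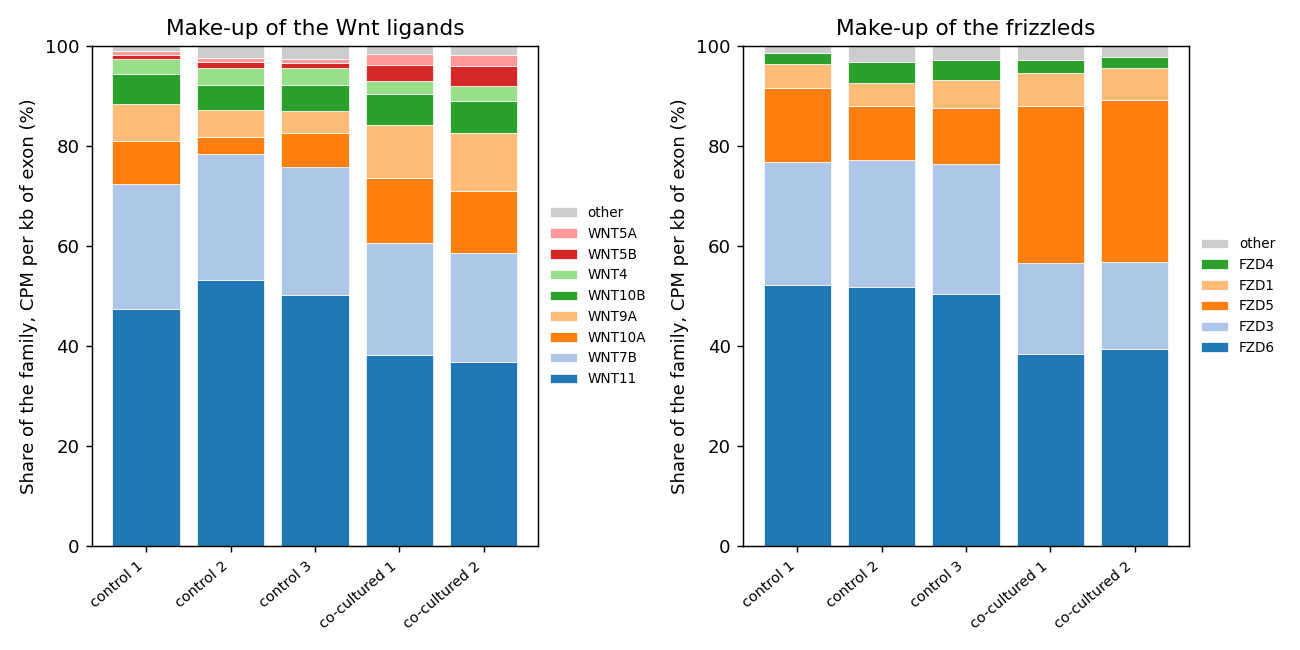
Share (%) of each gene in the summed CPM per kb of exon of the Wnt ligands and of the frizzleds, as 1 stacked bar per NCI-H209 library, 3 control and 2 co-cultured. FZD5 takes 11.0% to 14.8% of the frizzled sum in control and 31.2% and 32.4% in co-culture, and FZD6 goes from between 50.3% and 52.3% to 38.4% and 39.5%.

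As shares of the 10 frizzleds, FZD3 and FZD6 together held 76.8%, 77.1% and 76.3% of the CPM per kb in control and 56.7% and 56.8% in co-culture. FZD5 held 14.8%, 11.0% and 11.2% in control and 31.2% and 32.4% in co-culture. The groups stood apart in both shares, and the summed frizzled level was 38.7, 34.4 and 34.2 CPM per kb in control and 48.2 and 50.2 in co-culture.

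Of the 6 upregulated DEGs, the 4 with the largest log2 fold changes (FZD8, WNT5B, WNT5A and FZD5) have their promoter windows printed here. They are the 250 bases before the RefSeq start in GRCh38.p14, read 5′ to 3′ on the gene's strand. Capitals mark CCAAT on either strand (ATTGG where it lies on the other strand) and TATAAA, motifs that were chosen after the sequences had been seen. The windows are chr10:35642297-35642546 (minus strand) for FZD8, chr12:1616806-1617055 (plus strand) for WNT5B, chr3:55487307-55487556 (minus strand) for WNT5A and chr2:207769907-207770156 (minus strand) for FZD5. WNT5A and WNT5B have more than 1 RefSeq start, and 1 window of each is shown.
FZD8: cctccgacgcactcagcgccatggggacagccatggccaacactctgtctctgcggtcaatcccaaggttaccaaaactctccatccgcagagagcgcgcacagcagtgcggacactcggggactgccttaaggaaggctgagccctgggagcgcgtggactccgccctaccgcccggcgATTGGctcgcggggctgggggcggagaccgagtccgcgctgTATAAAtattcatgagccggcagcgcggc
WNT5B: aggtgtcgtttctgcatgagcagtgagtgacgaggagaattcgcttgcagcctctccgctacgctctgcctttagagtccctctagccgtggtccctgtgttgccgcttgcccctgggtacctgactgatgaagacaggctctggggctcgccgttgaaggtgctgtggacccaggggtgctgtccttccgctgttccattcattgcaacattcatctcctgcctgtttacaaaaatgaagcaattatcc
WNT5A: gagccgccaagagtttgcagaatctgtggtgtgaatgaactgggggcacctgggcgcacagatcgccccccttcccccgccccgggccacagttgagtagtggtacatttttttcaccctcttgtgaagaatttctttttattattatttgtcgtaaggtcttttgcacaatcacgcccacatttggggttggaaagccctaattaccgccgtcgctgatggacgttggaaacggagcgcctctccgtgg
FZD5: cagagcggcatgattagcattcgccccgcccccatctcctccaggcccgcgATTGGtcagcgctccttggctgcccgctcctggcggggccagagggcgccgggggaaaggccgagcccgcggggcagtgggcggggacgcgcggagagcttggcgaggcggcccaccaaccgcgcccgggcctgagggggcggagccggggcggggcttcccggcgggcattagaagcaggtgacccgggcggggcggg
The windows differed in base composition. FZD5 had 76.8% GC and 30 CpG and FZD8 65.2% GC and 24 CpG, while WNT5A had 52.8% GC and 14 CpG and WNT5B 54.8% GC and 10 CpG. The median over all 35116 windows was 58.0% GC and 11 CpG. Counting the base before the start as -1, CCAAT began at -199 in FZD5 and at -70 in FZD8, and TATAAA at -29 in FZD8 and, at a second start of WNT5B, at -78. The TCF/LEF motif, searched as CTTTGAT or CTTTGTT on both strands, was found in 0 of the 6 upregulated DEGs and in 3 of the 40 Wnt genes with a window, against 8.04% of all 27305 genes with a window (a match in any window of the gene). ACGTG, the core of the hypoxia response element, was found in 0 of the 6 and 6 of the 40 (21.7% of all genes), CCAAT in 2 of the 6 and 18 of the 40 (37.0%), and TATAAA in 2 of the 6 and 4 of the 40 (13.05%). A missing match says only that these letters are not in the window.

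LRP5, the tested LRP co-receptor, rose slightly, from 68.6, 67.3 and 65.7 CPM to 86.1 and 80.4 CPM (log2 fold change 0.31, SE 0.08, edgeR quasi-likelihood adjusted p = 0.0128). Its groups did not overlap, and the call was lost without co-cultured replicate 1 (adjusted p = 0.139) and without co-cultured replicate 2 (adjusted p = 0.0635). LRP6 was listed with 1, 0 and 0 reads in control against 0 and 0 in co-culture, and nothing was read from it. The count files also hold 6057 entries on other sequences, such as patches, and whether reads of LRP6 or of CHGA went to copies there was not tested.

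In the R-spondin axis, LGR4 fell and the other tested genes did not pass. LGR4, an R-spondin receptor and the most abundant gene of the axis, went from 76.3, 59.3 and 62.6 CPM to 53.8 and 47.5 CPM (log2 fold change -0.38, SE 0.12, edgeR quasi-likelihood adjusted p = 0.0352). The groups did not overlap, and the call was lost without co-cultured replicate 1 (adjusted p = 0.0959), without co-cultured replicate 2 (adjusted p = 0.268) and with unstranded counts. LGR5, a stem cell marker of the gut and itself a target of β-catenin, stood at 13.2, 12.3 and 12.1 CPM in control and 14.1 and 15.9 CPM in co-culture. Its groups did not overlap, but its log2 fold change of 0.25 did not pass, with a 95% interval of -0.03 to 0.53. ZNRF3, the ligase that removes frizzleds from the membrane and a feedback target, stood at 35.2, 28.3 and 28.0 CPM in control and 28.9 and 31.3 CPM in co-culture (log2 fold change -0.02, SE 0.12). LGR6 showed a log2 fold change of 0.22 (edgeR quasi-likelihood adjusted p = 0.557), also without overlap between the groups. RNF43, the paralog of ZNRF3, counted 13, 7 and 4 reads in control against 6 and 6 in co-culture. The R-spondins RSPO1, RSPO2, RSPO3 and RSPO4 reached at most 2, 5, 3 and 4 counts.

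Of the 10 secreted antagonists, 4 were tested (DKK2, DKK3, SFRP5 and FRZB). By the edgeR quasi-likelihood test 0 passed and 0 had an unadjusted p under 0.05, and DESeq2 called 0. Over all genes tested, 33.4% passed the edgeR test in either direction. DKK3, a divergent DKK protein and the most abundant of its family, stood at 2.39, 3.15 and 3.38 CPM in control and 3.01 and 3.43 CPM in co-culture. FRZB, first found in cartilage, counted 16, 32 and 40 reads in control against 21 and 23 in co-culture. DKK2 showed a log2 fold change of -0.51 (SE 0.42) and SFRP5 of 0.42 (SE 0.54), both with overlapping groups. DKK1, which blocks LRP6 and is a β-catenin target in many cells, counted 8, 14 and 7 reads in control against 0 and 3 in co-culture. With the co-cultured libraries set to the floor of 3 counts per library, the control mean of DKK1 was 2.87-fold above them. Counting error does not enter this ratio, and co-cultured replicate 2 stood at the floor itself. DKK1 did not pass the filter on low counts. With a filter of 1 count in any library it showed a log2 fold change of -2.42 (edgeR quasi-likelihood adjusted p = 0.0192).

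The intracellular feedback genes moved in different ways. NKD1 (chr16:50548330-50649249), which binds Dishevelled and is switched on by β-catenin in several tissues, counted 284, 301 and 286 reads in control against 129 and 130 in co-culture. It stood at 15.1, 16.6 and 14.6 CPM in control and 7.05 and 8.59 CPM in co-culture, with no overlap. Its means were 15.5 ± 1.05 CPM (SD, n = 3) and 7.82 ± 1.09 CPM (SD, n = 2), which is a log2 fold change of -0.99 (SE 0.14, edgeR quasi-likelihood adjusted p = 0.00111) that ran from -1.13 to -0.84 without each library in turn. AXIN2, the most widely used readout of β-catenin activity, stood at 13.2, 9.79 and 11.1 CPM in control and 12.1 and 8.79 CPM in co-culture, with overlapping groups. Its log2 fold change was -0.11, with a 95% interval of -0.53 to 0.30. AXIN1, the constitutive scaffold of the destruction complex, stood at 34.7, 32.7 and 32.8 CPM in control and 32.4 and 33.7 CPM in co-culture (log2 fold change -0.02, SE 0.09). NKD2 had 0 counts in every library.

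Of the nuclear genes, CTNNB1 and TCF7L2 rose. CTNNB1 (chr3:41194741-41260096), which encodes β-catenin, went from 153, 124 and 132 CPM to 163 and 172 CPM (log2 fold change 0.30, SE 0.10, edgeR quasi-likelihood adjusted p = 0.0425). The groups did not overlap, but the call did not hold with upper-quartile scaling (adjusted p = 0.0780). It was also lost without control replicate 2, control replicate 3, co-cultured replicate 1 or co-cultured replicate 2, each left out in turn, with adjusted p between 0.103 and 0.249. TCF7L2 (chr10:112950250-113167678), a β-catenin partner on DNA, went from 30.6, 38.7 and 40.3 CPM to 64.0 and 47.0 CPM. Its log2 fold change was 0.60 (SE 0.15, edgeR quasi-likelihood adjusted p = 0.0138), and 0.37 without co-cultured replicate 1, where it no longer passed (adjusted p = 0.195). TCF7 stood at 10.9, 9.51 and 8.19 CPM in control and 10.5 and 8.79 CPM in co-culture, with overlapping groups. TCF7L1, a TCF that mostly represses, counted 83, 115 and 111 reads in control against 60 and 68 in co-culture (log2 fold change -0.50, edgeR quasi-likelihood adjusted p = 0.125). Without control replicate 1 it was -0.64 and passed (adjusted p = 0.0159), and it also passed with unstranded counts at -0.62 (adjusted p = 0.0409). With opposite-strand counts subtracted, TCF7L1 was at -0.05 (adjusted p = 0.924), and 33.1% of the reads at its locus lay on the other strand. LEF1 had at most 2 counts in any library.

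The branch of each gene was assigned for this report and not taken from the data. The R-spondin axis and the intracellular feedback genes were counted as canonical. Set side by side, the canonical genes, 38 in number, had 19 tested, of which 6 rose and 2 fell, and the median log2 fold change was 0.11. The 2 that fell were LGR4, of the R-spondin axis, and NKD1, a feedback gene, so their branch rests on that assignment. The 6 non-canonical genes (WNT4, WNT5A, WNT5B, WNT11, FZD3 and FZD6) were all tested, 2 rose and 0 fell, with a median of 0.14. The 14 receptors and ligand-binding antagonists that serve both branches had 8 tested, 3 higher and 0 lower, with a median of 0.21. FZD8, which passed the filter only through the co-cultured group, is among these 3 and also raises this median. The median of 0.21 is therefore not set against the other medians. For the frizzleds alone the median was 0.03, or 0.01 without FZD8. All 3 groups therefore held genes that rose, and no test of a difference between the branches was made. Within the ligands as a whole, 5 of 9 tested genes rose, and within the frizzleds 3 of 8, or 2 of 7 without FZD8. Over all genes tested, 18.4% were higher and 15.0% lower. Co-cultured libraries lay wholly above control for 14 of the 33 tested Wnt genes and wholly below for 2, against 29.4% and 30.0% of all genes. Without FZD8, 13 of 32 lay wholly above. Without co-cultured replicate 1 the Wnt genes called higher fell to 6 and those called lower to 1, while over all genes 8.21% were then higher and 4.62% lower. Without control replicate 1 there were 4 lower (23.0% of all genes), and without co-cultured replicate 2 there was 1 (5.21% of all genes). Downregulated DEGs among the Wnt genes numbered 2 without control replicate 1 or without co-cultured replicate 2, and 1 without control replicate 3.

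The rest of the pathway was followed through 4 lists written from general knowledge. Of 22 genes of ligand secretion and the cell surface, 16 were tested, with a median log2 fold change of -0.11. Of these, 4 rose (25%) and 3 fell (18.75%), against 18.4% and 15.0% of all genes. SDC1, a syndecan, rose by 1.28 on the log2 scale (adjusted p = 9.91e-05), GPC6, a glypican, by 1.08 (adjusted p = 0.00208) and BAMBI, a decoy TGF-β receptor, by 0.35 (adjusted p = 0.0166), all by the edgeR quasi-likelihood test. KREMEN2, a DKK receptor, rose by 1.51 (edgeR quasi-likelihood adjusted p = 0.0457) from 8, 10 and 17 counts to 48 and 13, so that its groups overlapped, and 80.0% of the reads at its locus lay on the other strand. GPC4, another glypican, showed a log2 fold change of -1.33 (adjusted p = 0.0142), CER1, a secreted antagonist, of -1.19 (adjusted p = 0.00613) and CAPRIN2, an adaptor of LRP receptors, of -0.38 (adjusted p = 0.0139), all by the edgeR quasi-likelihood test. Without co-cultured replicate 1 the counts were 2 higher and 0 lower, without co-cultured replicate 2 there was 1 lower, and without control replicate 1 there were 5 lower, while the shares of all genes called moved the same way in these fits.

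Of 36 genes of canonical transduction, 35 were tested, with a median log2 fold change of 0.10. Of these, 8 rose (22.9%) and 2 fell (5.71%), against 18.4% and 15.0% of all genes. TLE1 and TLE3, corepressors that bind TCF factors, rose by 0.77 (adjusted p = 0.000751) and 0.64 (adjusted p = 0.000534), and BCL9L, a β-catenin coactivator, by 0.64 (adjusted p = 0.00157), all by the edgeR quasi-likelihood test. APC2, a relative of the tumor suppressor APC, rose by 1.11 (edgeR quasi-likelihood adjusted p = 0.00116), with 65.4% of the reads at its locus on the other strand. The genes that fell were the kinase CSNK1D (log2 fold change -0.28, edgeR quasi-likelihood adjusted p = 0.0166) and the Dishevelled gene DVL3 (-0.24, adjusted p = 0.0328). The higher count was 14 without control replicate 1, 5 without co-cultured replicate 1 and 5 without co-cultured replicate 2, when 26.5%, 8.21% and 8.94% of all genes were higher. The lower count was 1 without control replicate 2 or 3 (10.8% and 11.1% of all genes) and 0 without either co-cultured replicate.

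Of 46 genes of non-canonical transduction, 41 were tested, with a median log2 fold change of 0.02. Of these, 11 rose (26.8%) and 7 fell (17.1%), against 18.4% and 15.0% of all genes. PPP3CA, a catalytic subunit of calcineurin, rose by 0.76 (adjusted p = 0.000203), the cytoskeletal kinase ROCK2 by 0.70 (adjusted p = 0.000560), the GTPase RAC1 by 0.54 (adjusted p = 0.00151) and PRKCA by 0.50 (adjusted p = 0.00155), all by the edgeR quasi-likelihood test. Those that fell included ANKRD6, a Dishevelled-binding protein (log2 fold change -0.93, adjusted p = 0.000703), the planar polarity effectors INTU (-0.51, adjusted p = 0.00496) and WDPCP (-0.43, adjusted p = 0.00927), and the phospholipase PLCB2 (-1.01, adjusted p = 0.0200), all by the edgeR quasi-likelihood test. The higher count was 5 without co-cultured replicate 1 and 5 without co-cultured replicate 2, when 8.21% and 8.94% of all genes were higher. The lower count was 3 without control replicate 2, 2 without co-cultured replicate 1 and 1 without co-cultured replicate 2, when 10.8%, 4.62% and 5.21% of all genes were lower.

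**Figure D4:**
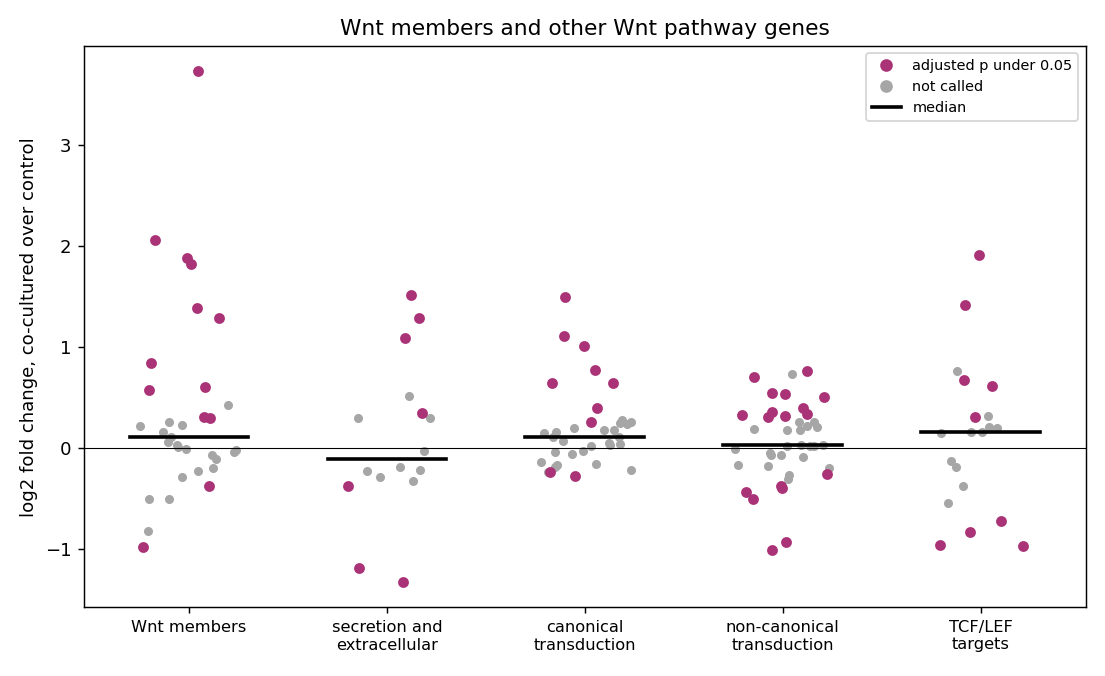
Log2 fold change in co-culture relative to control for each tested gene of the Wnt members and of the 4 further pathway lists, with colored points for an adjusted p under 0.05 and a bar at each median. The medians lie between -0.11 and 0.15, with called genes on both sides of 0 in every column.

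Of 35 genes known as TCF targets in other cells, 20 were tested, with a median log2 fold change of 0.15. Of these, 5 rose (25%) and 4 fell (20%), against 18.4% and 15.0% of all genes. EPHB3, an ephrin receptor of the gut crypt, rose by 0.61 (adjusted p = 0.00141) and JUN by 0.30 (adjusted p = 0.0126), both by the edgeR quasi-likelihood test. SP5, a direct target in many cells, went from 13, 14 and 10 counts to 61 and 24, a log2 fold change of 1.91 (edgeR quasi-likelihood adjusted p = 0.00557), with 40.5% of the reads at its locus on the other strand. ASCL2, a gut stem cell factor, went from 16, 14 and 9 counts to 43 and 20 (log2 fold change 1.41, edgeR quasi-likelihood adjusted p = 0.0219). In the other direction were ID2 (log2 fold change -0.96, adjusted p = 0.000989), BIRC5 (-0.73, adjusted p = 0.00168), NEUROG1 (-0.98, adjusted p = 0.00414) and PLAUR (-0.83, adjusted p = 0.0183), all by the edgeR quasi-likelihood test. CCND1, one of the 35 target genes, showed a log2 fold change of -0.19 (edgeR quasi-likelihood adjusted p = 0.753). NOTUM, the secreted deacylase that inactivates Wnt ligands, belongs to the list of secretion and the cell surface. It was also at -0.19 (edgeR quasi-likelihood adjusted p = 0.669). MYC counted 16, 6 and 4 reads in control against 2 and 2 in co-culture and was not tested. The higher count was 3 without control replicate 3 and 1 without co-cultured replicate 1, when 14.8% and 8.21% of all genes were higher.

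The libraries were directional, and 92.3% to 93.1% of stranded reads lay on the annotated strand. For 10 Wnt genes at least 10% of the reads at the locus lay on the other strand, with at least 10 such counts in a library (SFRP4, WNT2B, WNT8B, WNT6, TCF7, WNT3A, RNF43, TCF7L1, WNT4 and FZD7). TCF7 had 345, 405 and 437 opposite-strand counts in control and 292 and 269 in co-culture, where SKP1 is annotated, against 133 to 205 on its own strand. WNT2B had 435, 418 and 454 in control and 379 and 318 in co-culture. None of the 6 upregulated DEGs was among these 10 genes.

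**Figure D5:**
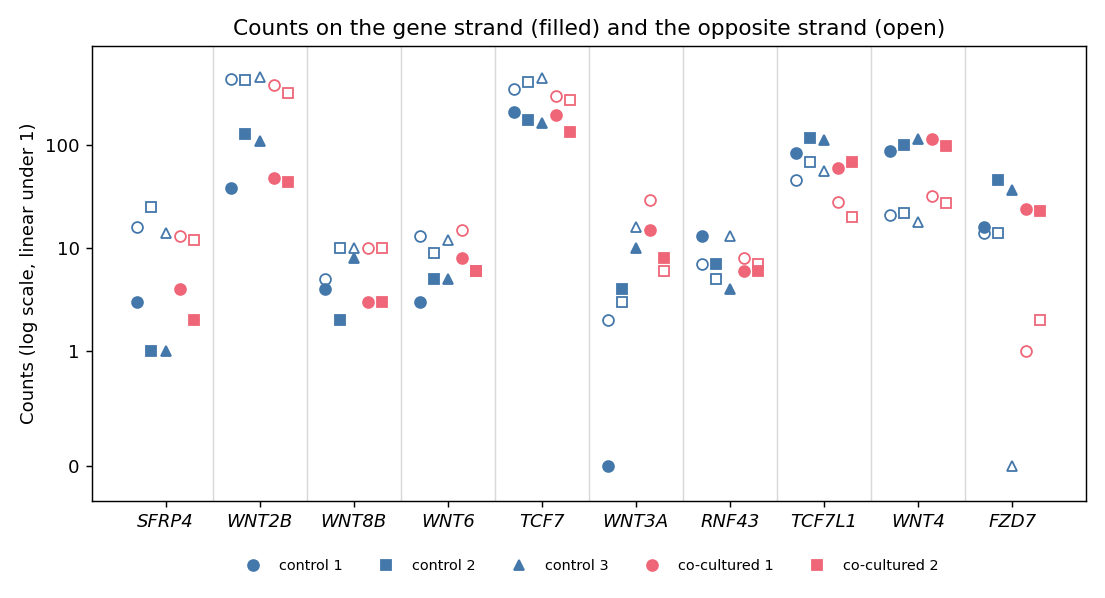
Counts (log scale, linear under 1) on the gene's own strand and on the opposite strand for Wnt genes in each library, 3 control and 2 co-cultured. WNT2B and TCF7 hold more reads on the opposite strand than on their own in every library, with 318 to 454 for WNT2B and 269 to 437 for TCF7.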

How the data were processed

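NCI-H209 cells were profiled by rRNA-depleted, directional RNA-Seq (NEBNext Ultra Directional kit) in 3 control and 2 co-cultured samples, grouped by their labels. The authors deposited counts of reads per gene for each library, laid out as STAR counts genes, with columns for both strands together and for each alone, of which the gene's own strand was used. The submitters' processing notes name CASAVA 1.8, STAR 2.6.1b, DESeq2 and GRCh38, and the annotation matched GENCODE release 29 for 58780 entries, with 6057 on other sequences. Multimapping reads, 7.05% to 7.75%, are not counted, which lowers genes with near-identical copies. The authors also deposited a table of their own comparison, which holds normalized means, fold changes and p-values, and only its gene names were used.

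Genes were kept by filterByExpr, normalized by TMM and compared with edgeR 4.0.16 in R 4.3.3 (quasi-likelihood test, Benjamini-Hochberg adjustment over 20360 genes), without a block. SE was taken as the size of the change over the root of its F statistic. CPM per kb divides by the union exon length. Replicates differed by more than sampling noise (chi-square per degree of freedom 4.60 to 18.2), and the biological coefficient of variation was 10.2%. Alternatives were upper-quartile and median-ratio scaling, DESeq2 1.42.0, 2 filters on low counts, a replicate block, leaving out each library, and unstranded or strand-subtracted counts. The interval of the FZD8 ratio and the floors cover counting error only, while intervals of log2 fold changes come from the fit and include the spread between samples.

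The members and lists were chosen with earlier results of these data known, and no list was tested as a set. Every member is accounted for. Values in every library are given for members with an adjusted p under 0.05 and an absolute log2 fold change above 1, for the most abundant tested member per exon length of each role, and for the nodes CTNNB1, AXIN2, LEF1, TCF7, LRP6, LGR5, FZD3, FZD6, WNT5A and WNT11 where above 3 counts in a library. Of each pathway list, up to 4 called genes per direction with the smallest p are named. Other named genes, among them WNT2B, WNT3A, WNT4, WNT10B, FZD1, LGR4, RNF43, DKK1, NKD1, TCF7L1, TCF7L2, NOTUM, CCND1 and MYC, were chosen after their values were seen. Of the members, 40 had a RefSeq promoter window. The bases just after the printed starts lay within a GENCODE transcript of the gene for FZD8, WNT5A and WNT5B but not for FZD5.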

Additional observations from a re-analysis of the deposited data

Results flagged for a closer look

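Reads on the strand opposite to 3 Wnt genes, which enter the comparisons only through the alternatives with unstranded or subtracted counts, lay above every control library in CPM in both co-cultured libraries. Opposite-strand counts at WNT7B were 14, 8 and 12 in control and 17 and 22 in co-culture. At WNT4 they were 21, 22 and 18 in control and 32 and 27 in co-culture, where the antisense gene AL445253.1 is annotated. At DKK3 they were 7, 5 and 8 in control and 9 and 8 in co-culture. These were 3 of the 15 Wnt genes with more than 3 opposite-strand counts in both co-cultured libraries (20%), and 17.5% of all such genes showed the same. No test was made of these counts. Groups of 3 and 2 samples are too small for the search for single outlying samples.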

How the results depend on the processing

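Over 13 alternatives, the 33 tested Wnt genes gave 421 values, of which 372 kept their direction and side of the threshold, 19 lost the call, 4 gained one and 26 had the other sign. All 26 were of 11 genes that were not called, with sizes of at most 0.21, and 0 were of called genes. Of the 13 called genes, 7 passed in every alternative that tested them (WNT5A, WNT5B, WNT9A, FZD1, FZD5, FZD8 and NKD1); FZD8 could not be tested with 10 counts required in every library. The FZD8 calls are a description only, since the filter let FZD8 in only through the co-cultured group, where it is high. The cause of the changes below was not tested, apart from the smaller number of samples when a library is left out. The labels name no shared origin for samples with the same replicate number, and only 2 numbers are shared. Their deviations correlated at -0.114 and -0.067. With 2 co-cultured libraries the deviations of that group mirror each other, so these correlations cannot show whether such samples share an origin. With the replicate block, 2771 genes were higher and 2053 lower, against 3750 and 3059 without it, and the Wnt genes gave 8 higher, 2 lower and 1 downregulated DEG. WNT10B (adjusted p = 0.102), LRP5 (0.109) and CTNNB1 (0.152) lost their calls with the block. The block also gave 0 lower in canonical transduction, 4 lower in non-canonical transduction and 3 higher among TCF targets, and changed no other count by over 1.5 times.

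Upper-quartile scaling moved the median of all genes to -0.11, with 19.3% of all genes lower. It gave 1 downregulated DEG among the Wnt genes and 5 lower in canonical transduction. The filter of 1 count in any library gave 4 of 53 tested Wnt genes lower, when 9.42% of all genes were lower. It also gave 1 downregulated DEG among the Wnt genes and 1 lower in canonical transduction. DESeq2 gave 1 lower in canonical and 4 lower in non-canonical transduction, with 12.4% of all genes lower. Unstranded counts gave 0 lower in canonical transduction, with 12.0% of all genes lower. The ranges below belong beside the shares of all genes called, which moved in the same fits. When 1 control library was left out, 14.5% to 26.5% of all genes were higher and 10.8% to 23.0% lower. Both shares were smaller without either co-cultured library. Leaving out each library in turn gave 6 to 11 Wnt genes higher, 1 to 4 lower and 0 to 2 downregulated DEGs. It gave 2 to 5 higher and 0 to 5 lower for secretion and the cell surface, 5 to 14 higher and 0 to 3 lower for canonical transduction, 5 to 16 higher and 1 to 9 lower for non-canonical transduction, and 1 to 7 higher for TCF targets. The log2 fold changes of uncalled genes that took the other sign when a library was left out ran from -0.17 to 0.030 for WNT11, -0.19 to 0.14 for FZD4, -0.61 to 0.063 for FZD7, -0.074 to 0.099 for ZNRF3, -0.024 to 0.22 for DKK3, -0.53 to 0.022 for FRZB, -0.042 to 0.021 for AXIN1, -0.36 to 0.098 for AXIN2 and -0.11 to 0.15 for TCF7. Upper-quartile scaling gave -0.074 for FZD4, -0.018 for FZD6 and -0.053 for TCF7, the replicate block 0.073 for FRZB and -0.080 for TCF7, unstranded counts 0.0059 for FZD3, 0.027 for ZNRF3 and -0.21 for TCF7, subtracted counts -0.0052 for FZD4, 0.094 for FZD7 and 0.0049 for AXIN1, and the filter of 10 counts in every library -0.0031 for FZD4. Depth limits what can be said of the 25 Wnt genes that were not tested (for LRP6, reads on other entries were also not tested), and FZD8, DKK1 and SFRP5 rest on few counts.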
